A study of Mus musculus with 12 samples.

Results

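The mouse genome holds many sites where the part of gRNA3 next to the PAM is matched in full, and here each of them was looked up in the peaks of dCas9. A seed site was defined as any 23 bases on an assembled chromosome of mm10, on either strand, in which at least the 10 PAM-proximal bases of gRNA3 were matched and directly followed by an NGG PAM. There were 393 seed sites, of 276565900 positions with an NGG PAM in all. A seed site was called bound in a library where a peak of that library overlapped its 23 bases. The 10 matched bases and the PAM chose the sites, and no single site was taken or left out for its peaks. The rule itself was set with earlier results known. The study had reported a fully matched seed and PAM in the top regions of these same data.

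A guide RNA directs Cas9 to DNA by base pairing, which begins beside the PAM, a short motif that the protein itself reads. The PAM-proximal bases are called the seed, since a mismatch there disturbs binding more than a mismatch at the far end of the guide. dCas9 has lost its nuclease activity and stays on the DNA without cutting it, so that its position can be read by immunoprecipitation. A pairing too short for cleavage can be long enough for binding.

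NIH-3T3 fibroblasts, an established mouse line, expressed FLAG-tagged dCas9 and GFP from a lentivirus with a human ubiquitin C promoter. They were sorted for GFP, received a second lentivirus with gRNA3 or with the scrambled guide gRNAscr, were selected with puromycin, and carried an empty vector in place of Cre recombinase. gRNA3 was designed to the promoter of Il33, the gene of an alarmin cytokine. Each guide had 3 anti-FLAG libraries, with peaks called in each on its own, and 3 input libraries. The study describes its replicates as biological, while the labels of these libraries give only a number, and p-values measure the spread between libraries.

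The libraries differed in the number of peaks and in the smallest pileup called. With gRNA3 the peak lists held 197, 2052 and 6685 entries in replicates 1 to 3, and with gRNAscr between 88 and 1163. The depth recovered from the peak values was 21.6 to 28.8 M anti-FLAG reads per library. The recovered input depth was less even. It was 8.80, 15.6 and 16.6 M reads in replicates 1 to 3 with gRNA3, and 11.5, 10.96 and 8.89 M with gRNAscr. Whether input depth bears on the number of peaks was not tested. The smallest pileup of any peak was 28, 17 and 12 reads in the dCas9:gRNA3 libraries, against 22 to 23 reads in the dCas9:gRNAscr libraries. Pileups under 28 reads were thus called in replicate 3 and not in replicate 1. Of the seed sites bound in 1 library alone, all 6 in replicate 2 and 6 of 13 in replicate 3 had 28 reads or more. What decided the calls at single sites was not tested.

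The sequences of the strongest bound sites are given with that of the target, because they carry what these sites share. Each is written 5′ to 3′ on the strand that matches the guide, with the unbroken PAM-proximal match and the PAM in capitals. The gRNA3 is drawn with a mismatch to its own target at the base farthest from the PAM (G1C, positions counted from 1 at the guide's 5′ end, with the base of the guide first), so the target is matched over 19 bases.
Il33 target, chr19:29945780-29945802, plus strand: cGACTGTGTTAGCTCTCCACCGG
Between genes, chr4:8906826-8906848, plus strand: gactggaagTAGCTCTCCACAGG
Wwox intron, chr8:114673533-114673555, minus strand: agaagacagcAGCTCTCCACTGG
Tenm2 intron, chr11:36526550-36526572, minus strand: atcaagtctcAGCTCTCCACGGG
Gm12055 promoter, chr11:22732842-22732864, plus strand: ctggccttaaAGCTCTCCACAGG
Between genes, chr11:54223807-54223829, minus strand: ctcctctccTAGCTCTCCACAGG
6430710C18Rik intron, chr2:72786480-72786502, minus strand: aggcacagagAGCTCTCCACGGG
Between genes, chr16:10452760-10452782, plus strand: gagccacaccAGCTCTCCACGGG
Apart from the target, these sites matched 10 or 11 bases beside the PAM and between 1 and 4 of the 10 bases beyond the seed. The site in the Gm12055 promoter had 9 mismatches to the guide. The PAM of the shown sites began with every possible base.

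The match lengths of the 393 sites were short. The match ended at 10 bases in 332 sites, at 11 in 45 and at 12 in 15, and none lay between these and the Il33 target. The sites were spread over 20 chromosomes, with 185 on the plus strand and 208 on the minus strand, and 1 pair lay within 500 bp of each other.

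Seed sites were bound with gRNA3 and in no library with gRNAscr. With gRNA3, replicate 1 had 20 bound seed sites, replicate 2 had 36 and replicate 3 had 44, against 0 in each dCas9:gRNAscr library. These counts are shares of 5.09% (95% confidence interval 3.14 to 7.75%), 9.16% (6.50 to 12.5%) and 11.2% (8.25 to 14.7%). Among all NGG sites, peaks of these libraries covered 0.00283%, 0.032% and 0.11%. In the dCas9:gRNAscr libraries the share of all NGG sites was 0.00415%, 0.018% and 0.0012%, and a count of 0 of 393 allows up to 0.763%. The intervals and this limit are exact binomial or 3-count limits and cover counting error only.

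The difference of 33.3 bound sites per library had no overlap between the guides. The mean was 33.3 ± 12.2 (SD, n = 3) with gRNA3 and 0 ± 0 (SD, n = 3) with gRNAscr (exact permutation test, two-sided, 20 assignments, p = 0.1). This is the smallest p that 3 libraries against 3 can give. The closest gRNAscr peak to a seed site bound in at least 2 libraries lay 20 bp from the Gm12055 site, in replicate 1. That peak had a fold enrichment of 5.32 and its summit was 197 bp from the seed site.

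The bound sites were largely shared between libraries. Of the 50 seed sites bound in at least 1 dCas9:gRNA3 library, 19 were bound in all 3, 12 in exactly 2 and 19 in exactly 1. The other 343 sites, 87.3% of the total, had no peak in any library. The share bound in at least 2 libraries was 7.89% (5.42 to 11.01%), against 0.0217% of all NGG sites. Of the 20 sites bound in replicate 1, 19 were bound in all libraries and the remaining one also in replicate 3. Leaving out replicate 2 or replicate 3 reduced the 31 sites bound in at least 2 libraries to 20 and 19, respectively.

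Seed sites were among the highest peaks of each library. Fold enrichment divides the pileup at a summit by the background around it, with 1 added to each after scaling to the input. The recovered scale was 0.356, 0.576 and 0.772 in replicates 1 to 3 with gRNA3. The added 1 thus weighs unequally between replicates, and their fold enrichments are not directly comparable. The 5 peaks with the highest fold enrichment all covered a seed site in replicates 1 and 3, as did 4 of the 5 in replicate 2. The study had aligned the top 5 regions of these data to gRNA3 before the seed rule was set. That the highest peaks cover seed sites was therefore in part known in advance. Of the top 20 peaks, 8 covered a seed site in replicate 1, 9 in replicate 2 and 9 in replicate 3. Bound seed sites also reached far down the lists, to rank 132, 1976 and 6521, respectively.

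The share of sites bound was higher at 10 matched bases than at 9 in every library. Of 5203 sites that matched exactly 8 bases, 0.154% were bound in replicate 1, 0.461% in replicate 2 and 1.02% in replicate 3. Of 962 sites that matched exactly 9 bases, 0.936%, 0.936% and 1.14% were bound. With exactly 10 matched bases the shares were 4.52% (2.55 to 7.34%), 7.83% (5.18 to 11.3%) and 9.94% (6.94 to 13.7%). The step from 9 to 10 bases was thus 4.83-fold, 8.37-fold and 8.69-fold, and the intervals at 9 and 10 bases did not overlap in any of the libraries. The step from 8 to 9 bases was 6.08-fold, 2.03-fold and 1.12-fold. In replicate 1 it was larger than the step from 9 to 10. The cut at 10 bases was set with the seed match of the top regions of these data known. Sites matching fewer than 8 bases were under a peak in 0.00282%, 0.0319% and 0.110% of cases, and neighbouring sites there share the same peaks.

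**Figure D1:**
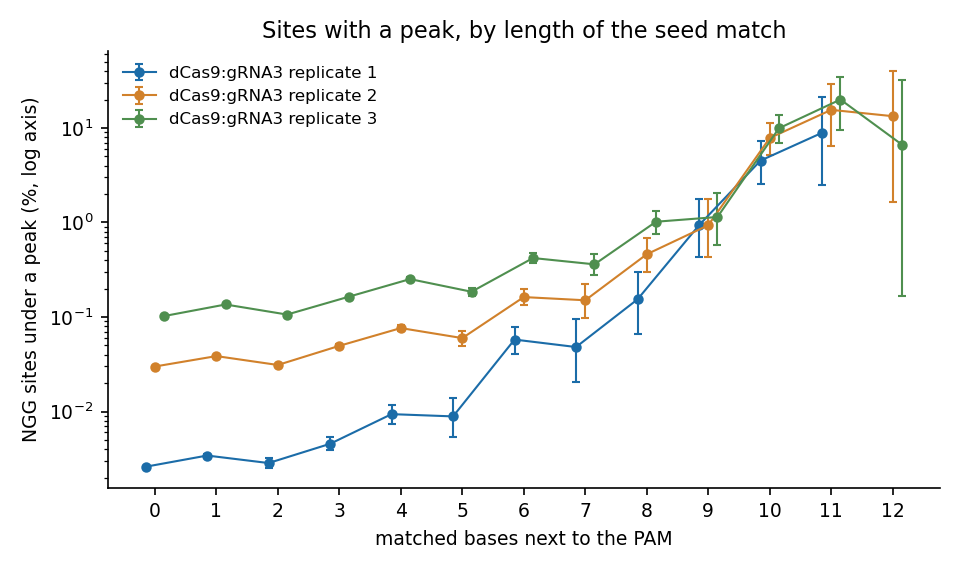
Share of all NGG sites under a peak (%, log axis) by the number of matched bases next to the PAM, in the 3 dCas9:gRNA3 libraries; bars are exact binomial 95% confidence intervals, and a share of 0 (12 bases in replicate 1) is not drawn. The libraries lie far apart at short matches, are closest at 9 bases, between 0.936 and 1.14%, and lie between 4.52 and 9.94% at 10 bases.

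Within the seed sites, a longer match was not clearly bound more often. Of 45 sites with 11 matched bases, 4 were bound in replicate 1, 7 in replicate 2 and 9 in replicate 3. For at least 2 libraries the share was 13.1% of the 61 sites with 11 or more matched bases and 6.93% of those with 10, a difference of 6.19 percentage points (95% interval −0.918 to 17.1, Newcombe's method). Its interval excluded 0 in replicate 2 alone, at 8.56 points (0.568 to 20.04), and the libraries were not tested against each other. Without the Il33 target it was 4.74 points (−2.00 to 15.5).

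Of the 15 sites with 12 matched bases, 13 had no peak in any library, a share like the 87.3% of all seed sites. Among these 13, 4 had a GC content within 100 bp either side below 43.5%. This cut is the lowest GC content of the sites bound in at least 2 libraries. That none of the 79 seed sites below it was so bound was therefore fixed in advance. None of the 79 was bound in 1 library either. The share bound in at least 1 library was 13.3% (1.66 to 40.5%) of these 15 and 12.7% of all seed sites. These sequences are shown because no bound site but the target matches the guide over more bases.
Bound in replicates 2 and 3, between genes, chr12:31257697-31257719: cccctgccTTAGCTCTCCACAGG
Bound in replicate 2, Rgs3 intron, chr4:62683548-62683570: ggcttccaTTAGCTCTCCACTGG
No peak, Ltbp4 intron, chr7:27312882-27312904: cccctggcTTAGCTCTCCACTGG
No peak, Vav3 intron, chr3:109552507-109552529: tgtgtcttTTAGCTCTCCACAGG
No peak, Tbc1d8b intron, chrX:139734761-139734783: gtaatcacTTAGCTCTCCACTGG
No peak, between genes, chr8:113956818-113956840: tgtttggtTTAGCTCTCCACTGG
No peak, Sarm1 intron, chr11:78482137-78482159: tggaataaTTAGCTCTCCACAGG
No peak, between genes, chr14:8946657-8946679: aaataacaTTAGCTCTCCACTGG
The bound site on chromosome 12 had a fold enrichment of 8.46 and 38 reads in replicate 2 and of 7.21 and 25 reads in replicate 3. The bound site in Rgs3, which encodes a regulator of G-protein signalling, had a fold enrichment of 5.68 and 54 reads in replicate 2. No peak was listed for the Rgs3 site in replicates 1 and 3, and the lists hold no reads for it there.

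Close relatives differed in binding. The bound site on chromosome 12 and the unbound site in Ltbp4, the gene of a latent TGF-β binding protein, share the mismatches G1C, G2C, A3C and G8C. They differ at position 7 (T7C in the bound and T7G in the unbound site) and in the first base of the PAM, which is A in the bound and T in the unbound site. The bases around the bound site had a GC content of 53.8% within 100 bp either side, against 49.8% around the unbound site. The remaining unbound sites with 12 matched bases lay in introns of Xrra1 and of Chrnb3, a nicotinic receptor subunit, in the promoter of Gm11490 inside Ppm1e, and between genes at chr2:174511052-174511074, chr2:180409211-180409233, chr3:115635969-115635991 and chrX:67518977-67518999.

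The Il33 target was the site with most reads in 2 of the libraries. It lies across an annotated transcript start of Il33, in the untranslated part of the first exon. Its fold enrichments of 54.0, 31.7 and 80.3 in replicates 1 to 3 ranked it 1, 3 and 1 among their peaks. The pileup at its summit was 294, 147 and 294 reads, or 11.9, 5.42 and 13.6 reads per M anti-FLAG reads.

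The target fell behind other sites in replicate 2. Between replicates 1 and 2 its reads per M changed by a ratio of 0.455, while the ratio at the other 18 sites bound in all libraries ranged from 0.761 to 1.19 with a median of 0.957. Replicate 3 had 2.52 times the reads per M of replicate 2 at the target, and 0.755 to 1.59 times at the other 18 sites. By reads the target ranked 7 of these 19 in replicate 2 and 1 in the other libraries. This difference was noticed in the data and was not tested.

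The strongest sites outside Il33 came close to the target. The site between genes at chr4:8906826-8906848 had a fold enrichment of 40.0, 50.2 and 63.1 and a pileup of 217, 234 and 229 reads. The site in an intron of Wwox, which encodes an oxidoreductase known as a tumour suppressor, had a fold enrichment of 46.1, 45.6 and 61.2 and 251, 236 and 272 reads. Both exceeded the target in replicate 2 and fell below it in replicates 1 and 3.

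A second tier of sites lay between fold enrichments of 14.96 and 34.6. In an intron of Tenm2, the gene of a teneurin adhesion receptor, the fold enrichment was 24.5, 26.8 and 29.1 on 132, 124 and 105 reads. At the promoter of the long noncoding RNA Gm12055 it was 22.6, 23.9 and 34.6 on 124, 123 and 125 reads. At chr11:54223807-54223829 it was 14.96, 15.8 and 17.0 on 202, 211 and 178 reads. The replicates of each site differed little in reads.

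Fold enrichment and reads ranked the sites differently. At chr16:10452760-10452782 there were 273, 294 and 273 reads, against 294, 147 and 294 at the target, on a fold enrichment of 14.0, 15.5 and 14.1. The local background there was 16.8, 17.4 and 18.1 reads, against 2.69, 2.96 and 2.38 reads at the target. In replicates 1 and 2 the value at the target equals the lowest background recovered for any peak of the library. At chr13:54249475-54249497, named here after its values were seen, 272, 307 and 289 reads stood on a background of 33.7, 31.3 and 14.3 reads. The fold enrichment divides by this background and was accordingly lower there than the reads alone would give.

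The other sites of the 12 with the highest median fold enrichment lay in introns. The site in the long noncoding RNA 6430710C18Rik had fold enrichments of 7.68, 14.6 and 17.3. The site in Fam19a5, the gene of a secreted chemokine-like protein, had 15.6, 6.98 and 13.8. The site in Rab22a, a small GTPase of endosomes, had 8.87, 12.6 and 11.3 on 49, 64 and 45 reads. The site in the long noncoding RNA Gm3764 had 9.70, 7.61 and 11.9, and the site in Eya2, the gene of a transcriptional coactivator, had 9.39, 11.2 and 9.59. For Fam19a5 and Rab22a the replicates changed places, so their order was not fixed by these data.

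**Figure D2:**
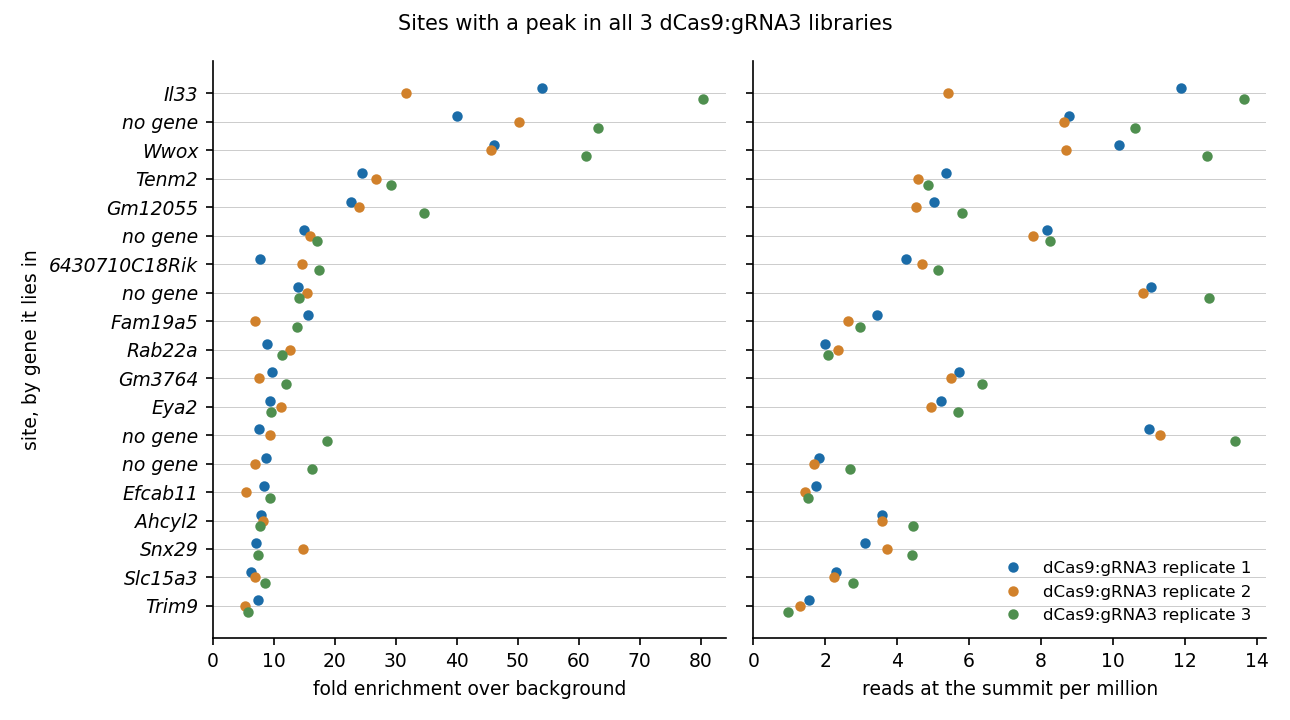
Fold enrichment over the local background (left) and reads at the summit per M anti-FLAG reads (right) of the 19 seed sites bound in all 3 dCas9:gRNA3 libraries, sorted by median fold enrichment; each point is 1 library and each row is named by the gene the site lies in. The Il33 point of replicate 2 lies at 5.42 reads per M, far below those of replicates 1 and 3, while the points of most other sites lie close together.

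Across the 19 sites bound in all libraries, the order by reads was alike in every library. Spearman's rho of the reads was 0.946 between replicates 1 and 2, 0.982 between 1 and 3 and 0.946 between 2 and 3, given as a description over sites that share their libraries. The order by fold enrichment was less alike, with rho of 0.719, 0.7702 and 0.760. The pileup did not follow the number of matches beyond the seed, with rho of 0.0443, −0.00723 and −0.00362 in the 3 libraries. Sites of different match length also overlapped in fold enrichment. In replicate 3 the range was 2.65 to 61.2 for the 33 bound sites with 10 matched bases and 4.56 to 63.1 for the 9 with 11.

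The pileups of sites bound in all libraries had a higher median than those of the rest. The number of libraries is itself a count of calls, which weak pileups pass less often. The median in replicate 3 was 111 reads for the 19 sites bound in all libraries, 34.5 for the 12 bound in exactly 2 and 27 for the 13 bound in replicate 3 alone. In replicate 2 the medians were 124, 47 and 55 reads, the last for the 6 sites bound in replicate 2 alone. Of the sites bound in exactly 1 library, the highest fold enrichment was 10.8 at chr3:65598284-65598306, in replicate 3. It was followed by chr14:9547225-9547247 and chr6:135272732-135272754, each with 7.76 on 27 reads in replicate 3.

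Summits lay close to the seed sites. The summit fell inside the 23 bases at 9 of 20 bound sites in replicate 1, at 20 of 36 in replicate 2 and at 20 of 44 in replicate 3. It was within 50 bp of the 23 bases at 19, 34 and 43 of these sites. Over the 3 libraries the median distance was 1 bp. Where the summit lay outside, it was more often on the PAM side than on the guide side, with 8 against 3 sites, 10 against 6 and 19 against 5. At the target the summit was inside the 23 bases in replicates 1 and 2 and 9 bp to the PAM side in replicate 3.

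**Figure D3:**
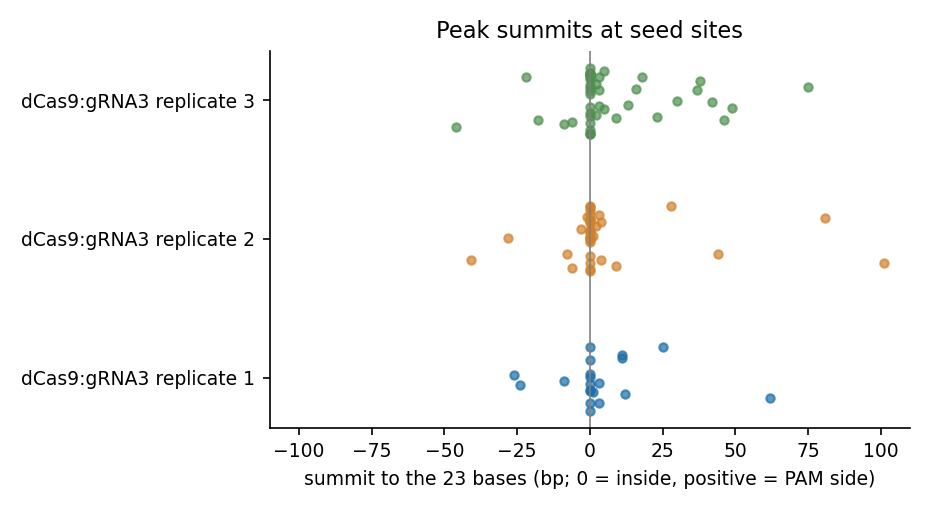
Distance in bp from the 23 bases of a bound seed site to the summit of its peak, in the 3 dCas9:gRNA3 libraries, with 0 for a summit inside the site and positive values on the PAM side; each point is 1 site and its height within a row has no meaning. Of the 20, 36 and 44 summits, 19, 34 and 43 lie within 50 bp.

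No site with an NAG PAM was bound. There were 389 sites with the same 10 matched bases or more followed by NAG, a weaker PAM of Cas9. In each of the 6 libraries 0 of 389 had a peak, which allows up to 0.771%.

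The share bound differed by the first base of the PAM. In at least 2 libraries it was 25% of the 24 sites with C, 12.1% of the 33 with G, 7.28% of the 206 with A and 4.62% of the 130 with T. Since the matched seed ends in C, a first PAM base of C or G forms a CpG, and the split between these and A or T was made after the values were seen. The share was 17.5% with C or G and 6.25% with A or T, a difference of 11.3 percentage points (2.96 to 23.3). In replicate 1 the shares were 15.8% and 3.27%, in replicate 2 19.3% and 7.44%, and in replicate 3 17.5% and 10.1%, with an interval of the difference of −1.14 to 19.6 points in replicate 3. Without the Il33 target, whose PAM begins with C, the difference was 9.82 points (1.81 to 21.7).

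GC content of the surroundings also differed. The median within 100 bp either side was 51.6% for the 31 sites bound in at least 2 libraries and 47.98% for the 343 unbound sites. With a split at 50%, chosen after the values were seen, 12.2% of the 164 GC-richer and 4.804% of the 229 GC-poorer sites were bound in at least 2 libraries, a difference of 7.39 points (1.90 to 13.6). The difference was 6.96 points in replicate 1, 10.4 in replicate 2 and 5.90 in replicate 3, where its interval reached from −0.444 to 12.8. Over 4 ranges of GC content the share did not rise steadily. It was 0% of 76 sites under 43%, 4.27% of 117 from 43 to 48%, 15.2% of 79 from 48 to 52% and 11.6% of 121 above. At a GC content of 50% or more, 25.8% of 31 sites with C or G and 9.02% of 133 with A or T as the first PAM base were bound, and below 50% 7.69% of 26 and 4.43% of 203 were. The reads were not used here, and how GC content acts on read recovery was not tested.

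**Figure D4:**
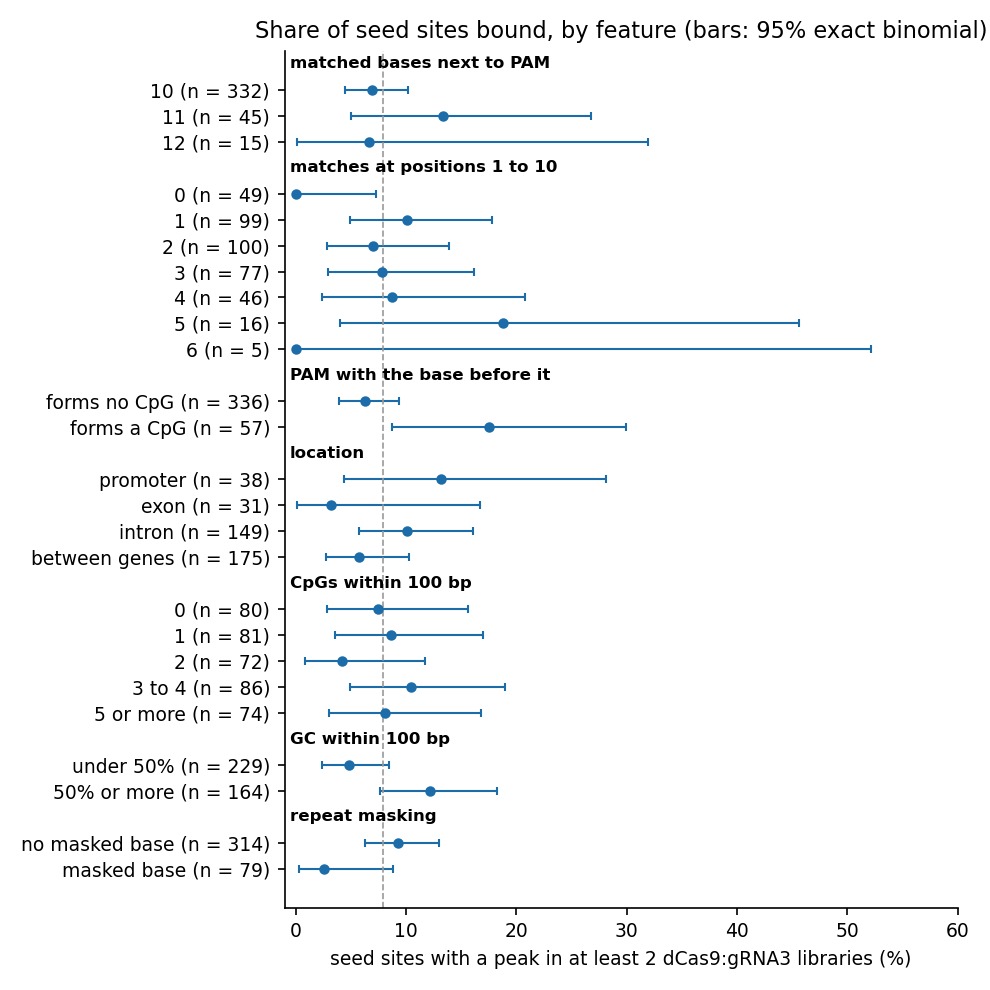
Share of the 393 seed sites bound in at least 2 dCas9:gRNA3 libraries (%), split by 7 features; points are shares, bars are exact binomial 95% confidence intervals, n is the number of sites, and the dashed line is the share over all seed sites, 7.89%. The Il33 target, the one site of its match length and number of matches, is left out of the upper 2 features, and most intervals cross the dashed line.

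Matches beyond the seed had no clear order. Of the 49 sites with no match at positions 1 to 10, 0 were bound in at least 2 libraries, which has an upper confidence limit of 7.25%, against 9.01% of the 344 with a match there (difference 9.01 points, 1.29 to 12.5). The share was 10.1% of 99 sites with 1 match, 7% of 100 with 2, 7.79% of 77 with 3, 8.70% of 46 with 4 and 18.8% of 16 with 5. All 5 sites with 6 matches were unbound. With 3 or more matches the share was 9.66% and with 2 or fewer 6.85%, a difference of 2.80 points (−2.62 to 9.22). In replicate 3 this difference was −0.256 points.

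The only bound site with no match at positions 1 to 10 was chr3:65598284-65598306, in replicate 3. Its summit lay 75 bp from the 23 bases, the farthest of that library, while summits of other bound sites lay up to 62 bp away in replicate 1 and still farther away than 75 bp in replicate 2.

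Single positions gave small differences. At position 4, 13.4% of 97 matched and 6.08% of 296 mismatched sites were bound in at least 2 libraries, a difference of 7.32 points (0.979 to 15.8). Of the 10 positions compared this was the 1 whose interval excluded 0. The differences at the other positions were between −3.03 points at position 9 and 6.19 points at position 10.

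**Figure D5:**
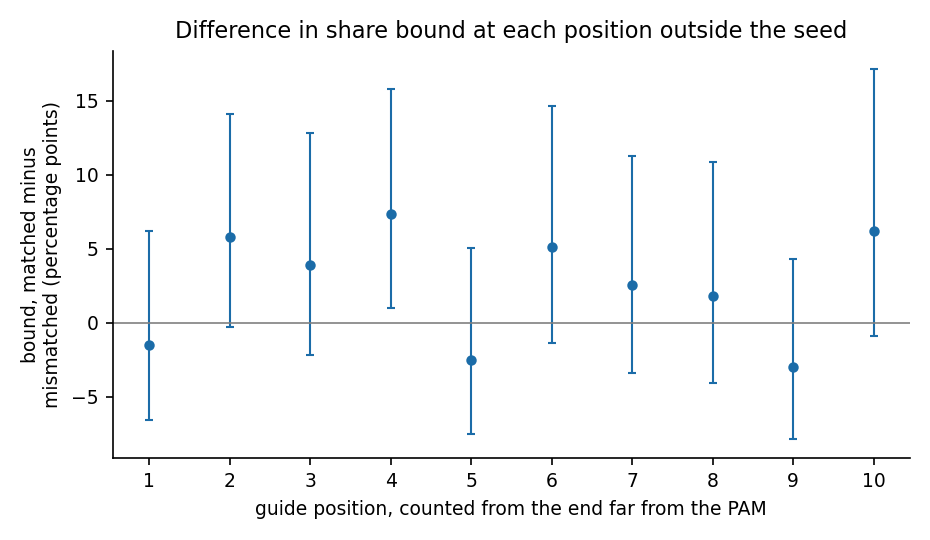
Difference in the share of seed sites bound in at least 2 dCas9:gRNA3 libraries between sites that match and sites that mismatch the guide, in percentage points, at each of the 10 positions outside the seed, counted from the end far from the PAM; bars are Newcombe 95% intervals. Position 4 is the 1 position whose bar does not reach 0.

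Promoters held 38 of the 393 seed sites, and the share of all NGG sites in promoters was not counted. Of the 38 sites within 1000 bp of a transcript start, 5 were bound in at least 2 libraries, or 13.2%, against 7.32% of the 355 sites elsewhere. The difference was 5.83 points (−2.23 to 20.2), and 3.49 points without the Il33 target. Outside promoters, 3.23% of 31 exonic, 10.1% of 149 intronic and 5.71% of 175 intergenic sites were bound. Inside a gene the share was 9.91% of 212 sites and elsewhere 5.52% of 181, a difference of 4.38 points (−1.10 to 9.76). Sites on the strand of their gene and on the opposite strand were bound in 11.2% of 89 and 9.01% of 111 cases, and the interval of this difference was −6.21 to 11.4 points.

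The bound promoter sites varied in strength. Next to Il33 and Gm12055, the site in the promoter of Ahcyl2, which encodes an S-adenosylhomocysteine hydrolase-like protein, had fold enrichments of 7.97, 8.22 and 7.68 on 88, 97 and 96 reads. The site in the promoter of Slc15a3, a peptide and histidine transporter, had 6.18, 6.84 and 8.62. The site in the overlapping promoters of Jrk and 4933427E11Rik had the lowest fold enrichments of the 31 sites in replicate 3, with 3.13 in replicate 2 and 2.65 there, on 156 and 105 reads and a local background of 48.6 and 38.9 reads. It had 24 CpGs within 100 bp.

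Further promoter and exon sites were bound in fewer libraries. A site in an untranslated exon of Psd4, an exchange factor of the GTPase ARF6, had a fold enrichment of 9.48 in replicate 2 and 11.4 in replicate 3, with the summit inside the site in both. Promoter sites of Ankrd44 (6.11) and Rgs3 (4.56) were bound in replicate 3 alone, and one near Pdxp (4.53) in replicate 2 alone. Their pileups were 21, 48 and 56 reads.

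CpG content gave small differences. The median number of CpGs within 100 bp was 2 for the 31 sites bound in at least 2 libraries and 2 for the unbound sites. Of the 160 sites with 3 or more CpGs in this window 9.38% were bound, against 6.87% of the 233 with 2 or fewer, a difference of 2.51 points (−2.88 to 8.605). Within the 23 bases, 11.2% of 98 sites with a CpG and 6.78% of 295 without one were bound, a difference of 4.44 points (−1.50 to 12.6). In replicate 1 alone the interval excluded 0, with 9.18% against 3.73% (difference 5.45 points, 0.330 to 12.99). Counting only CpGs in the 20 bases before the PAM, the shares were 8.77% of 57 and 7.74% of 336.

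Repeats held few bound sites. Of the 79 sites with a repeat-masked base 2 were bound in at least 2 libraries, or 2.53%, against 9.24% of the 314 without, a difference of 6.70 points (−0.104 to 10.8). The 17 sites whose sequence with its nearest flanks occurs more than once in the genome were all unbound, which has an upper confidence limit of 19.5%. How reads were placed at such sites was not tested. In all, 19 splits other than single positions were compared over the sites bound in at least 2 libraries. The interval of 5 excluded 0. They were splits by the first PAM base, GC content or any match beyond the seed, and where each was divided was chosen after the values were seen. Several of them split the same sites by the first PAM base, so the 5 are not separate results.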

How the data were processed

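Seed sites were searched on both strands of GRCm38 (mm10) with gRNA3, whose 20 bases were taken from the study's supplementary table with the first base as drawn in the study's alignments. The seed sites and all splits were chosen with earlier results of these data known. The authors trimmed the reads with Trim Galore 0.6.4, aligned them with Bowtie2 2.3.4.1 and ran MACS2 2.2.7.1 on every anti-FLAG library separately (fragments extended to 204 bp). The printed command names no control and no setting for duplicate reads, and the study names the input as control. Libraries were demultiplexed with bcl2fastq 2.20.

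Each deposited peak has a score, a fold enrichment (ratio of pileup to local background, pseudocount 1), and the −log10 of a p-value and of a q-value, as the authors' peak caller gave them. Peak lists hold no signal outside peaks, so an unbound site has no value. Pileup and background in reads, and the depth, were solved from the fold enrichment and the Poisson p-value on the assumption that each library was scaled to its input. The scale, and the solution kept for each peak, were those that brought pileups nearest to whole reads. That the pileup came out whole within 0.1 reads for 100% of peaks is therefore in part built in. The seed search was tested on simulated sequence, where 200 of 200 planted sites were found. The recovery was run on simulated peaks whose local backgrounds were lower than the highest given here, so its accuracy at those was not tested.

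Locations are from GENCODE M21. Promoters are within 1000 bp of a transcript start, then exons, introns and the rest. The guides were compared over libraries (exact permutation test, two-sided). Shares have exact binomial 95% confidence intervals and differences Newcombe's intervals, with no p over sites, which share libraries. Sites named are the target, those with 12 or more matched bases, the 12 of the sites bound in all libraries with the highest median fold enrichment, bound sites in promoters or exons, and the 3 highest sites bound in 1 library. Alternatives were stricter peaks (fold enrichment of 4 or more, −log10 q-value from 3 or from 5, summit within 50 bp), NAG, a seed of 12 bases, masked sites left out, sites within 500 bp merged, each library left out, the replicate number as a block, promoters of 2500 bp, CpGs within 500 bp and the first guide base as in the genome. Python 3.11.15, numpy 2.4.6, pandas 2.3.3, scipy 1.17.1 and matplotlib 3.10.9 were used.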

Additional observations from a re-analysis of the deposited data

How the results depend on the processing

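The excess of bound seed sites with gRNA3 kept its direction under 15 of 16 alternatives, the exception being NAG as the PAM, with a difference of 0, and with 0 sites bound in at least 2 or in all 3 libraries. A seed of 12 bases left 2 and 1 such sites. The Il33 target was among the 2 and was the 1 site bound in all 3 libraries. With each library left out in turn, the number bound in at least 2 libraries ranged from 19 to 30 and the number bound in all of those kept from 19 to 30. Counting sites bound in at least 1 library (added after seeing the data) gave 50 sites, and the differences by match length and by repeat masking, 10.2 and 9.59 percentage points, then had intervals above 0. Apart from the difference by match length with NAG, which was 0, the differences by match length, 3 or more matches at positions 1 to 10, PAM base, promoter, CpGs within 100 bp and repeat masking otherwise kept their direction and their call. The splits by GC content, any match, single positions, gene body and gene strand were not run under alternatives. With the replicate number as a block the difference was 33.3 sites and the exact permutation p was 0.25, the smallest that 8 assignments allow. Whether the numbers pair the libraries could not be checked, because all counts with gRNAscr were 0. Peak lists and short lists of sites limit what can be seen, and the wide intervals leave room for differences in either direction.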
